A study of Homo sapiens with 16 samples.

Results

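The nucleolus is where ribosomal RNA is transcribed, trimmed, chemically modified and packed with proteins into the precursors of both ribosomal subunits. RNA polymerase I makes the long precursor transcript, small nucleolar ribonucleoproteins (snoRNPs) guide its methylation (box C/D type) or pseudouridylation (H/ACA type), and a large set of processing factors cuts and folds it on the way to the subunits. MYC, a transcription factor and oncoprotein, is known in many cell types to bind and raise the genes of this machinery. The genes described here are MYC and 37 nucleolar ribosome biogenesis genes, 38 of the 58735 genes in the count tables. They were chosen by name and every one of them was found in both tables and passed the filter on low counts in both cell lines.

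The study asked what targeting YES1, a Src-family tyrosine kinase, does to triple-negative breast cancer cells. RNA was sequenced 48 h after transfection from 4 groups of 4 libraries: SUM159PT cells with sgYES1, a guide RNA against YES1, SUM159PT cells with sgNTS, a guide with no target, and MDA-MB-231 cells with each of the same guides. SUM159PT and MDA-MB-231 are established human triple-negative breast cancer lines, both labelled wild type. No source used here names the protein that acts with the guides. The series describes the 4 replicates as technical, so the p-values below measure only the spread between these libraries.

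Libraries held 14352042 to 20884267 counts in SUM159PT and 17156454 to 25124164 in MDA-MB-231. YES1 itself was at 38.3 to 40.2 CPM (counts scaled to the library size) with sgYES1, against 89.4 to 97.9 CPM with sgNTS in SUM159PT, and at 41.6 to 44.3 CPM with sgYES1, against 107 to 113 CPM with sgNTS in MDA-MB-231. In SUM159PT, mesenchymal and basal markers VIM, CD44 and EGFR summed to 1766 to 1835 CPM with sgYES1, against 1997 to 2028 CPM with sgNTS. In MDA-MB-231 these 3 summed to 2336 to 2494 CPM with sgYES1, against 2489 to 2720 CPM with sgNTS. ESR1 and PGR together came to at most 0.423 CPM in any library. The 6 luminal markers summed to 994 to 1144 CPM with sgYES1, against 892 to 955 CPM with sgNTS in SUM159PT, and to 822 to 915 CPM with sgYES1, against 1033 to 1084 CPM with sgNTS in MDA-MB-231, nearly all of it from the keratins KRT8 and KRT18, with PGR at 0 in every library. The 6 leukocyte markers summed to 0.974 to 1.71 CPM with sgYES1, against 0.141 to 0.601 CPM with sgNTS in SUM159PT, and to 2.99 to 3.50 CPM with sgYES1, against 0.749 to 1.80 CPM with sgNTS in MDA-MB-231. The 4 endothelial markers summed to 5.80 to 10.9 CPM with sgYES1, against 7.61 to 8.47 CPM with sgNTS in SUM159PT, and to 7.39 to 9.67 CPM with sgYES1, against 4.54 to 5.68 CPM with sgNTS in MDA-MB-231. The part of these markers in the results was not tested. In 3 groups 1 library stood apart, in that each pair with it differed more than any pair of the others (chi-square per degree of freedom over genes). In MDA-MB-231 sgYES1 replicate 1 its pairs were at 5.09 to 6.00, against 2.34 to 4.63 for the others, in MDA-MB-231 sgNTS replicate 4 at 9.38 to 29.1, against 3.36 to 6.81, and in SUM159PT sgNTS replicate 2 at 3.75 to 5.74, against 2.33 to 2.87. MDA-MB-231 sgNTS replicate 4 also had 2.34% of its counts from mitochondrial genes, against 3.81% to 5.15% in the other sgNTS libraries of that line. The part of this share in the results was not tested. Calls that were lost without a library that stood apart are given beside the result. Exonic bases shared with another gene make a count uncertain where strand is unknown, and beside the genes marked below they came to 23.2% of HEATR1, 20.2% of NOB1, 17.1% of NOP14, 11.4% of RRS1 (on its own strand), 10.4% of PNO1 and 8.74% of NOP56 (on its own strand).

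Promoter sequences are shown for a few of these genes, so that genes that moved together in SUM159PT can be set against each other and against FBL, which moved the other way. RefSeq windows (GRCh38.p14) of the 250 bases before an annotated start were available for 30 of the 38 genes, as 36 windows, and were searched on both strands. The E-box CACGTG, to which MYC with its partner MAX is known to bind, lay in 3 of the 36 windows (8.33%), against 6.34% of 35116 windows of all genes. CCGGAAG, the core that ETS-family factors are known to bind, lay in 11 windows (30.6%), against 8.52% of all windows. The CG-rich palindrome that BANP is known to bind lay in 1 window, that of NOP14 (2.78%), against 0.373% of all windows. A match is a string of letters and not a measured binding site. The shares over all windows were not limited to genes expressed in these lines, so an excess cannot be called particular to this machinery. The windows below are printed 5′ to 3′ on the gene's own strand and end just before the start, with every CACGTG and CCGGAAG match on either strand in capitals, so that CTTCCGG is CCGGAAG on the opposite strand. NOP10 lies on the minus strand at chr15:34343137-34343386, UTP20 on the plus strand at chr12:101279855-101280104 and UTP4 on the plus strand at chr16:69132399-69132648, and these are the 3 windows with CACGTG. POLR1C (plus strand, chr6:43516839-43517088), RRP9 (minus strand, chr3:51941905-51942154) and FBL (minus strand, chr19:39846380-39846629) hold CCGGAAG alone. BYSL (plus strand, chr6:41921249-41921498) and NOP56 (plus strand, chr20:2652382-2652631) hold none of the motifs searched.
NOP10: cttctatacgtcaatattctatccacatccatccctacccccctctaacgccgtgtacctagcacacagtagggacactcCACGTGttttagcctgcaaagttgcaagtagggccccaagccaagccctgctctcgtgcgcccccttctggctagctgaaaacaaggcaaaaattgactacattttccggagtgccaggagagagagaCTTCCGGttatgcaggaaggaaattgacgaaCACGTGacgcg
UTP20: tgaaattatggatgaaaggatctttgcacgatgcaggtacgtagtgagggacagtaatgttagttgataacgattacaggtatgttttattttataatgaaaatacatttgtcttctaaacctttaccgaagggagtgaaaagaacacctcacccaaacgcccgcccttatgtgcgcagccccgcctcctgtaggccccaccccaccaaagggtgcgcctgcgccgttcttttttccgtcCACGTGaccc
UTP4: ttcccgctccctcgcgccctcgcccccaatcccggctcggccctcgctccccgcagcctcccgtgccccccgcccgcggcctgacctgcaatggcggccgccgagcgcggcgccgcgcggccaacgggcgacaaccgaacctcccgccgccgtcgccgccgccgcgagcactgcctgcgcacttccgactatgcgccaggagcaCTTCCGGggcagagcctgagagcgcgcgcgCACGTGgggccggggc
POLR1C: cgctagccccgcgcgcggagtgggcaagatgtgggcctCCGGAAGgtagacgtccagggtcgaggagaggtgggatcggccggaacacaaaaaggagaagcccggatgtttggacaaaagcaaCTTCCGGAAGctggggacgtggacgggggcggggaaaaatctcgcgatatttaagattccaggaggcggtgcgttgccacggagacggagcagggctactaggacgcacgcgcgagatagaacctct
RRP9: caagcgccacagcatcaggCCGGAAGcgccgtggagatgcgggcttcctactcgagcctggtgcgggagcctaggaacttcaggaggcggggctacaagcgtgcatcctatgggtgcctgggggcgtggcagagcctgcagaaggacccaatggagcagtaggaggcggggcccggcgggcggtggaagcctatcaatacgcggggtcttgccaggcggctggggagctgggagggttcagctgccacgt
FBL: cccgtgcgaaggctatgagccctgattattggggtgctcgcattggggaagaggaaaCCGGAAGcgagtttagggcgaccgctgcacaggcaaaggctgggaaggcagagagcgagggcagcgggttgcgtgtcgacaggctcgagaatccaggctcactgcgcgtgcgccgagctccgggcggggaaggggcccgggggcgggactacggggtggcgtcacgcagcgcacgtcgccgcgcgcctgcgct
BYSL: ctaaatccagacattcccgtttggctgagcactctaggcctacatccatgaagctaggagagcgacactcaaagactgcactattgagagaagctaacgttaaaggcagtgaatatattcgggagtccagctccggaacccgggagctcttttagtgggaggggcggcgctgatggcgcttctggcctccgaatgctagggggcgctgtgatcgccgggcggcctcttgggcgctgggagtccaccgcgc
NOP56: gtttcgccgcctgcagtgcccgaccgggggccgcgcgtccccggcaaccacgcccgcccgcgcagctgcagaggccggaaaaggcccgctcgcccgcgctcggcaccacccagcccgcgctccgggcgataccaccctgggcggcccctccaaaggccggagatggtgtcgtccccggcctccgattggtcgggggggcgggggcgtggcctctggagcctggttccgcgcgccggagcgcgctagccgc
The closest CACGTG begins 10 bases before the start in UTP20, 11 in NOP10 and 16 in UTP4. Over all 30 genes with a window, 3 of 3 with CACGTG and 14 of 27 without it were called higher with sgYES1 in SUM159PT, and 7 of 10 with CCGGAAG and 10 of 20 without it. These counts are a description and were not tested.

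With sgYES1 in SUM159PT, 22 of the 38 genes rose, 2 fell (MYC and FBL) and 14 did not pass the test. A gene was called when its adjusted p was under 0.05 in edgeR's quasi-likelihood test, with Benjamini-Hochberg adjustment over all genes tested. By the same rule 39.4% of the 14479 genes tested in this line were called, 19.6% higher and 19.7% lower. The 38 genes were chosen with earlier results of these data known, so these shares describe the genes and do not test them. The median log2 fold change (sgYES1 over sgNTS) was 0.17 over the 38 genes and -0.01 over all genes tested. The groups did not overlap for 20 genes that were higher with sgYES1 and for 1 that was lower, against 17.7% and 17.6% of all genes tested in those directions. In MDA-MB-231 the same guide gave 6 higher, 7 lower and 25 not called, with a median of 0.01 over the 38 genes and over all genes tested. Of the 15427 genes tested there, 42.8% were called, 20.8% higher and 22.1% lower, and 8 of the 38 genes were higher and 5 lower with no overlap of the guides, against 18.8% and 20.4% of all genes tested. The share of the 38 genes called in MDA-MB-231 was thus no larger than among all genes. The MDA-MB-231 split depended on the scaling: with library totals in place of TMM factors, 14 were higher and 3 lower. The count of lower genes there was 3 without sgNTS replicate 3 and 4 without sgYES1 replicate 1. Over all genes tested in MDA-MB-231, the main test called 3205 higher and 3402 lower. Alternatives that left out no library called 2661 to 3956 of all genes higher and 2661 to 3812 lower. No share of all genes is given for library totals, so the 14 and 3 are a description. In bulk RNA, a change in the mix of cells and a change in RNA per cell cannot be told apart.

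**Figure D1:**
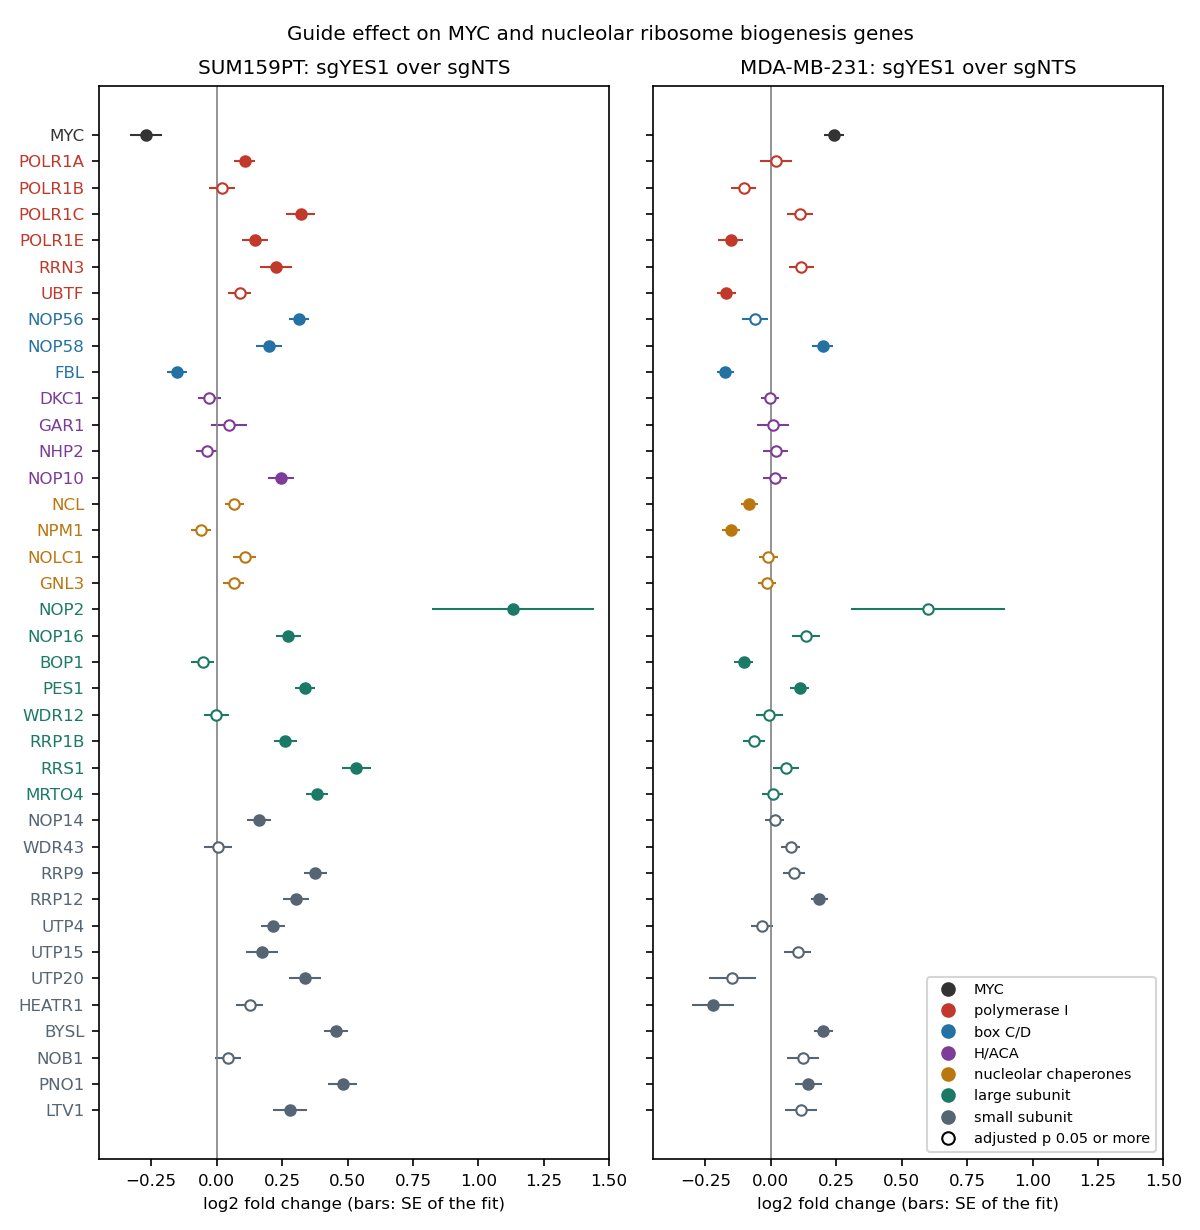
Log2 fold change of sgYES1 over sgNTS for MYC and the 37 ribosome biogenesis genes in SUM159PT (left panel) and MDA-MB-231 (right panel); points are edgeR estimates, bars their SE, colours the gene classes and open points genes with an adjusted p of 0.05 or more. In SUM159PT most processing factors lie to the right of 0 and MYC lies at -0.27, while in MDA-MB-231 the points lie on both sides of 0 and MYC lies at 0.24.

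MYC (ENSG00000136997, chr8:127735434-127741434, plus strand, hg38 in GENCODE 29) moved in opposite directions in the 2 lines, and in SUM159PT it fell while most of the machinery rose. In SUM159PT its level was 922, 926, 912 and 886 CPM with sgYES1, against 1197, 894, 1208 and 1095 CPM with sgNTS. The lowest sgNTS library, replicate 2, lay inside the sgYES1 range, so the groups overlapped, while the other 3 sgNTS libraries lay above every sgYES1 library. The log2 fold change was -0.27 ± 0.06 (SE, 4 libraries per group, here and for each value below; edgeR adjusted p = 0.00138), and without SUM159PT sgNTS replicate 2 it was -0.36 (adjusted p = 4.37e-08). In MDA-MB-231 MYC was at 229.9, 237, 245 and 220.2 CPM with sgYES1, against 202, 189, 197 and 199 CPM with sgNTS. These groups did not overlap, and the log2 fold change was 0.24 ± 0.04 (adjusted p = 0.000189). The difference between the effects, SUM159PT minus MDA-MB-231, was -0.52 ± 0.09 on the log2 scale (adjusted p = 7.15e-05 for the interaction of line and guide), and -0.57 without SUM159PT sgNTS replicate 2 (adjusted p = 5.68e-08).

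**Figure D2:**
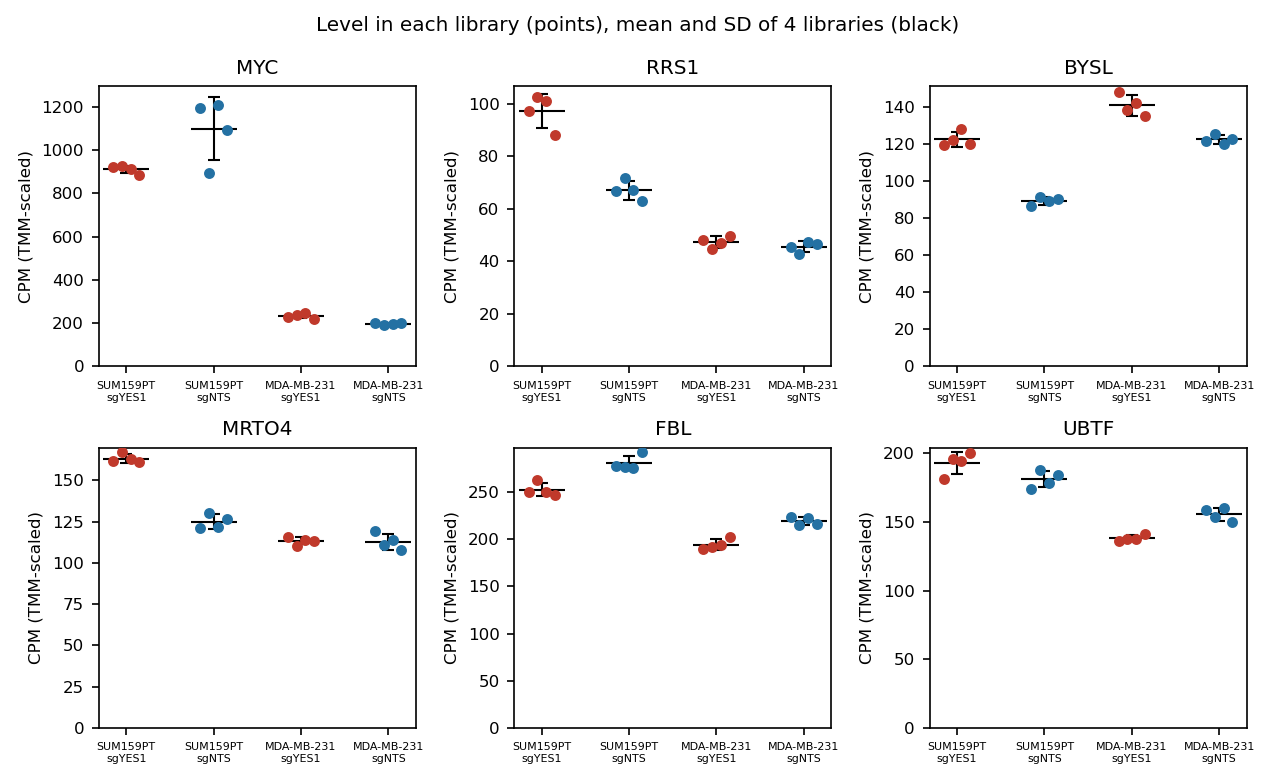
Level (TMM-scaled CPM, axes from 0) of MYC, RRS1, BYSL, MRTO4, FBL and UBTF in each of the 16 libraries; points are libraries (red sgYES1, blue sgNTS), black marks the mean and SD of 4 libraries. RRS1, BYSL and MRTO4 separate the guides in SUM159PT, FBL is lower with sgYES1 in both lines, and MYC runs in opposite directions with 1 SUM159PT sgNTS library at 894 CPM.

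Of the 6 polymerase I genes, 4 rose with sgYES1 in SUM159PT (POLR1A, POLR1C, POLR1E and RRN3) and none fell, while in MDA-MB-231 none rose and 2 fell (POLR1E and UBTF). Over all genes tested the shares were 19.6% higher and 19.7% lower in SUM159PT, and 20.8% and 22.1% in MDA-MB-231. POLR1C, a subunit that polymerase I shares with polymerase III, was at 54.2, 51.6, 52.7 and 51.9 CPM with sgYES1 in SUM159PT, against 44.0, 39.0, 43.9 and 41.7 CPM with sgNTS. Every sgYES1 library lay above every sgNTS library, a log2 fold change of 0.32 ± 0.06 (adjusted p = 9.78e-05). In MDA-MB-231 POLR1C was 37.0 ± 1.37 CPM with sgYES1 and 34.2 ± 1.57 CPM with sgNTS (SD, n = 4 each), which did not pass (edgeR adjusted p = 0.0936). About 18.2% of the exonic bases of POLR1C overlap a gene on the opposite strand, and no source used here says whether reads were counted by strand. POLR1E, a subunit that helps the polymerase to start transcription, moved in opposite directions. It was at 64.7, 63.5, 67.1 and 62.5 CPM with sgYES1 in SUM159PT, against 58.2, 57.1, 60.0 and 57.6 CPM with sgNTS, and at 61.5, 64.6, 56.4 and 58.9 CPM with sgYES1 in MDA-MB-231, against 66.2, 64.2, 69.7 and 68.0 CPM with sgNTS. The groups were apart in SUM159PT and overlapped in MDA-MB-231, where 1 sgYES1 library (64.6 CPM) exceeded 1 sgNTS library (64.2 CPM). Its effects were 0.15 ± 0.05 in SUM159PT (adjusted p = 0.0225) and -0.15 ± 0.05 in MDA-MB-231 (adjusted p = 0.0192), a difference of 0.29 ± 0.07 (adjusted p = 0.0022). Leaving out SUM159PT sgNTS replicate 2, sgNTS replicate 4 or sgYES1 replicate 3 ended the call in SUM159PT (0.127 to 0.14), and leaving out MDA-MB-231 sgNTS replicate 3 or sgYES1 replicate 3 ended that in MDA-MB-231 (-0.137 and -0.121). The SUM159PT call was also lost without a filter on low counts (0.14, adjusted p = 0.0798) and the MDA-MB-231 call with library totals (-0.11, adjusted p = 0.0911), so the opposite directions of POLR1E rest on calls that 4 alternatives ended in each line.

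UBTF, which binds along the ribosomal DNA and keeps it open, was at 136, 138, 138 and 141 CPM with sgYES1 in MDA-MB-231, against 159, 154, 160.2 and 149.8 CPM with sgNTS. All sgYES1 values lay under all sgNTS values, and the log2 fold change was -0.17 ± 0.03 (adjusted p = 0.00124). In SUM159PT UBTF was 193 ± 8.17 CPM with sgYES1 and 181 ± 6.13 CPM with sgNTS (SD, n = 4 each), with an edgeR adjusted p of 0.11, and the difference between lines was 0.25 ± 0.06 (adjusted p = 0.00237). POLR1A, the largest catalytic subunit, was at 403, 391, 402 and 386 CPM with sgYES1 in SUM159PT, against 368, 378, 346 and 378 CPM with sgNTS, a log2 fold change of 0.11 ± 0.04 (adjusted p = 0.0334). A small gap separated the groups, and this call was lost in 6 alternatives, with adjusted p up to 0.154, among them dropping replicate 1 or 3 of either guide. In MDA-MB-231 POLR1A was at 267, 245, 237 and 230.5 CPM with sgYES1, against 219, 232, 244 and 272 CPM with sgNTS, and the guides overlapped fully. POLR1A has the longest model of the 38 genes (13519 exonic bases), and its MDA-MB-231 values moved with the gene-length measure given with UTP20. RRN3, the factor that brings polymerase I to its promoter, averaged 58.4 CPM with sgYES1 and 50.1 CPM with sgNTS in SUM159PT (log2 fold change 0.23 ± 0.06, adjusted p = 0.00558). It has near-identical copies elsewhere in the genome, so its count is uncertain. POLR1B, the second catalytic subunit, was not called in either line.

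The box C/D particle did not move as a unit. NOP56 and NOP58, the paired scaffold proteins of the particle, rose with sgYES1 in SUM159PT, whereas FBL, the methyltransferase of the same particle, fell in both lines. FBL (chr19:39834458-39846414, minus strand) was at 250.2, 262, 251 and 247 CPM with sgYES1 in SUM159PT, against 277, 277, 276 and 292 CPM with sgNTS, and at 189.6, 191, 193 and 203 CPM with sgYES1 in MDA-MB-231, against 223, 215, 222 and 216 CPM with sgNTS. In neither line did the groups overlap. The log2 fold change was -0.15 ± 0.04 in SUM159PT (adjusted p = 0.00338) and -0.17 ± 0.03 in MDA-MB-231 (adjusted p = 0.000914), and the difference between lines was 0.01 ± 0.05 (adjusted p = 0.935).

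NOP56 was at 452, 452, 451 and 434 CPM with sgYES1 in SUM159PT, against 350.2, 384, 353 and 353 CPM with sgNTS. All sgYES1 libraries lay above all sgNTS libraries, and the log2 fold change was 0.31 ± 0.04 (adjusted p = 1.93e-06). In MDA-MB-231 NOP56 was at 262, 255, 259 and 257 CPM with sgYES1, against 291, 286, 255 and 245 CPM with sgNTS, where the sgNTS libraries spread over both sides of the sgYES1 libraries (adjusted p = 0.357). The effects differed by 0.36 ± 0.07 (adjusted p = 0.000213). NOP58 was at 167, 147, 158 and 144 CPM with sgYES1 in SUM159PT, against 133, 140.5, 133 and 130.0 CPM with sgNTS, and at 109.5, 117, 110.0 and 109 CPM with sgYES1 in MDA-MB-231, against 99.7, 100.4, 95.1 and 93.2 CPM with sgNTS. The guides were apart in both lines, with log2 fold changes of 0.20 ± 0.05 in SUM159PT (adjusted p = 0.00261) and 0.20 ± 0.04 in MDA-MB-231 (adjusted p = 0.00106).

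Among the 4 H/ACA proteins, NOP10 in SUM159PT was the single call in either line. Of all genes tested, 39.4% were called in SUM159PT and 42.8% in MDA-MB-231. NOP10, the small protein that holds the catalytic core of the particle together, was at 108, 111, 106 and 102 CPM with sgYES1 in SUM159PT, against 86.3, 96.3, 88.2 and 89.0 CPM with sgNTS. All sgYES1 values exceeded all sgNTS values, with a log2 fold change of 0.25 ± 0.05 (adjusted p = 0.000374). In MDA-MB-231 it was at 60.0, 63.5, 60.2 and 66.8 CPM with sgYES1, against 63.2, 60.5, 62.4 and 61.9 CPM with sgNTS, and the groups overlapped (difference between lines 0.22 ± 0.07, adjusted p = 0.0162). NHP2, another core protein, was at 139, 140.2, 139.7 and 141 CPM with sgYES1 in SUM159PT, against 145, 144, 138 and 148 CPM with sgNTS, and at 72.4, 68.0, 70.9 and 79.2 CPM with sgYES1 in MDA-MB-231, against 73.1, 69.2, 72.0 and 72.7 CPM with sgNTS. Neither line separated the guides for NHP2, which also overlaps a gene on the opposite strand over 27.4% of its exonic bases. DKC1, the pseudouridine synthase, had log2 fold changes of -0.03 ± 0.04 in SUM159PT and -0.0029 ± 0.04 in MDA-MB-231. GAR1, which binds beside DKC1, had 0.05 ± 0.07 in SUM159PT and 0.01 ± 0.06 in MDA-MB-231. Neither was called.

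The 4 abundant nucleolar chaperones and GTPases were not called in SUM159PT, and NPM1 and NCL fell in MDA-MB-231. Of all genes tested, 39.4% were called in SUM159PT and 22.1% were called lower in MDA-MB-231. NPM1 (nucleophosmin) was at 934, 982, 956 and 1016 CPM with sgYES1 in MDA-MB-231, against 1099.9, 1087, 1066 and 1064 CPM with sgNTS. Every sgYES1 library lay below every sgNTS library, and the log2 fold change was -0.15 ± 0.03 (adjusted p = 0.00244). In SUM159PT NPM1 was at 1544, 1364, 1472 and 1426 CPM with sgYES1, against 1464, 1571, 1496 and 1526 CPM with sgNTS, and the guides overlapped (adjusted p = 0.212). NPM1 has many processed pseudogenes, which makes its count uncertain. NCL (nucleolin), which binds the nascent precursor, was at 779, 809, 775 and 817 CPM with sgYES1 in MDA-MB-231, against 860.4, 841, 829.6 and 838 CPM with sgNTS. The groups were apart, but the change of -0.08 ± 0.03 was just past the threshold (adjusted p = 0.0488) and 11 of 15 alternatives ended the call, with adjusted p of 0.0556 to 0.352, among them leaving out any library but sgYES1 replicate 4. In SUM159PT NCL was at 1219, 1133, 1171 and 1142 CPM with sgYES1, against 1092, 1160.5, 1089 and 1108 CPM with sgNTS, which overlapped. NOLC1, a chaperone of snoRNPs, was at 241, 234, 239 and 218 CPM with sgYES1 in SUM159PT, against 219, 209.6, 231 and 206 CPM with sgNTS, also overlapping (adjusted p = 0.0651). GNL3 (nucleostemin), a nucleolar GTPase, had log2 fold changes of 0.07 ± 0.04 in SUM159PT and -0.02 ± 0.03 in MDA-MB-231 and was not called.

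The processing factors of both subunits made up most of the rise in SUM159PT. Of these 20 genes, 15 rose with sgYES1 and none fell, against 19.6% higher and 19.7% lower of all genes tested. The median log2 fold change of the 20 genes was 0.28. In MDA-MB-231, 4 rose and 2 fell, with a median of 0.08, against 20.8% higher and 22.1% lower of all genes tested. The 4 became 10 with library totals alone, for which no share of all genes is given. They became 2 without sgNTS replicate 3, sgNTS replicate 4 or sgYES1 replicate 1. The 7 snoRNP proteins, by comparison, had 3 higher and 1 lower in SUM159PT with a median of 0.05, and the 6 polymerase I genes a median of 0.13. RRP9 (0.38 in SUM159PT), itself a protein of a snoRNP, was counted with the processing factors, so this contrast depends on how genes were sorted. No test between these classes was made.

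Of the 8 large subunit factors, 6 rose in SUM159PT (NOP2, NOP16, PES1, RRP1B, RRS1 and MRTO4), with BOP1 and WDR12 not called. The share called higher over all genes tested in that line was 19.6%. RRS1 (chr8:66429028-66430733, plus strand), which helps to build the assembly intermediate that holds the smallest of the large-subunit rRNAs, had the largest log2 fold change of the 38 genes apart from NOP2, whose level was close to 0. It was at 97.3, 103, 101 and 88.0 CPM with sgYES1 in SUM159PT, against 66.6, 71.9, 67.0 and 63.1 CPM with sgNTS. The lowest sgYES1 library stood well above the highest sgNTS library, and the change was 0.53 ± 0.06 (adjusted p = 2.19e-07). In MDA-MB-231 RRS1 was at 48.0, 44.7, 47.1 and 49.8 CPM with sgYES1, against 45.6, 42.8, 47.3 and 46.6 CPM with sgNTS, and the guides overlapped (difference between lines 0.46 ± 0.08, adjusted p = 6.42e-05). MRTO4, which in yeast holds the place of a stalk protein on the precursor, was at 162, 167, 163 and 161 CPM with sgYES1 in SUM159PT, against 121, 131, 122 and 127 CPM with sgNTS. It was at 115, 110.4, 114 and 113 CPM with sgYES1 in MDA-MB-231, against 119, 111, 114 and 108 CPM with sgNTS. MRTO4 thus separated the guides in SUM159PT (0.38 ± 0.04, adjusted p = 4.33e-07) and overlapped in MDA-MB-231 (0.01 ± 0.04), a difference of 0.37 ± 0.06 (adjusted p = 3.7e-05).

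PES1, BOP1 and WDR12 form the PeBoW complex, which is needed to process the large-subunit precursor, and PES1 was the member that rose. PES1 was at 278, 290.4, 276 and 269 CPM with sgYES1 in SUM159PT, against 219, 218, 223 and 220.0 CPM with sgNTS, and at 142, 139, 139 and 143 CPM with sgYES1 in MDA-MB-231, against 137, 128, 130.4 and 128 CPM with sgNTS. The guides were apart in both lines, widely in SUM159PT (0.34 ± 0.04, adjusted p = 7.18e-07) and narrowly in MDA-MB-231 (0.11 ± 0.04, adjusted p = 0.0215). The MDA-MB-231 call was lost in 5 alternatives, with adjusted p up to 0.231. Among them were dropping sgYES1 replicate 1 or any sgNTS replicate other than replicate 1 (adjusted p = 0.0545 to 0.0733). The difference between lines for PES1 was 0.22 ± 0.05 (adjusted p = 0.00285). BOP1 averaged 219.7 ± 8.05 CPM with sgYES1 and 236 ± 5.66 CPM with sgNTS in MDA-MB-231 (SD, n = 4 each), a log2 fold change of -0.10 ± 0.04 (edgeR adjusted p = 0.0311). This call was ended by 8 alternatives, with adjusted p up to 0.197. Among them were dropping 1 of sgYES1 replicates 1 and 2 or of sgNTS replicates 1 and 3 (adjusted p = 0.0661 to 0.089). The SUM159PT value of BOP1, -0.05 ± 0.04, did not pass. WDR12 had a log2 fold change of -0.0013 ± 0.05 in SUM159PT and -0.01 ± 0.05 in MDA-MB-231. NOP16, which shares 20% of its exonic bases with genes on the opposite strand, averaged 89.5 CPM with sgYES1 and 74.1 CPM with sgNTS in SUM159PT (0.27 ± 0.05, adjusted p = 0.000116). RRP1B, which acts on large-subunit precursors, averaged 204 CPM with sgYES1 and 170.4 CPM with sgNTS there (0.26 ± 0.04, adjusted p = 8.42e-05).

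NOP2, an rRNA methyltransferase, is uncertain in these tables. Its level was listed at 0.966, 1.58, 1.77 and 1.70 CPM with sgYES1 in SUM159PT, against 1.10, 0.541, 0.704 and 0.436 CPM with sgNTS. The groups overlapped, and the log2 fold change of 1.13 ± 0.31 (adjusted p = 0.00585) rests on these few counts. A readthrough gene on the same strand covers 54.4% of the exonic bases of NOP2 and is itself listed at 0 in both tables. With NOP2 set aside, 14 of 19 processing factors were called higher in SUM159PT.

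Of the 12 small subunit factors, 9 rose in SUM159PT and none fell, with WDR43, HEATR1 and NOB1 not called. The shares over all genes tested in that line were 19.6% higher and 19.7% lower. HEATR1 had a log2 fold change of 0.13 ± 0.05 there (adjusted p = 0.0556) and was called higher in 6 of 15 alternatives. BYSL (chr6:41921188-41933046, plus strand), which stays with the precursor from the nucleolus to the cytoplasm, was at 119.5, 122, 128 and 119.8 CPM with sgYES1 in SUM159PT, against 86.4, 91.1, 89.3 and 90.2 CPM with sgNTS. In MDA-MB-231 it was at 148, 138, 142 and 135 CPM with sgYES1, against 122, 125, 119.8 and 123 CPM with sgNTS. The guides were apart in both lines, by 0.46 ± 0.04 in SUM159PT (adjusted p = 8.91e-08) and 0.20 ± 0.04 in MDA-MB-231 (adjusted p = 0.000635), and these effects differed by 0.24 ± 0.06 (adjusted p = 0.00268). PNO1, an RNA-binding partner of the late precursor, averaged 60.0 ± 3.02 CPM with sgYES1 and 43.0 ± 1.79 CPM with sgNTS in SUM159PT (SD, n = 4 each), a log2 fold change of 0.48 ± 0.06 (edgeR adjusted p = 8.49e-07). In MDA-MB-231 PNO1 rose by less, with 56.4 ± 3.12 CPM with sgYES1 and 51.0 ± 2.33 CPM with sgNTS (0.14 ± 0.05, edgeR adjusted p = 0.036), and the difference between lines was 0.33 ± 0.08 (adjusted p = 0.00235). The MDA-MB-231 call of PNO1 was lost in 6 alternatives, with adjusted p up to 0.133. Among them were dropping 1 of sgYES1 replicates 1 to 3 or of sgNTS replicates 3 and 4 (adjusted p = 0.0749 to 0.105).

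RRP9, a protein of the snoRNP that directs the first cuts of the precursor, was at 152, 155, 154 and 143 CPM with sgYES1 in SUM159PT, against 109.9, 114, 121 and 119.9 CPM with sgNTS. The groups were apart (0.38 ± 0.05, adjusted p = 1.41e-06). In MDA-MB-231 RRP9 was at 78.0, 75.4, 80.1 and 78.9 CPM with sgYES1, against 74.8, 69.2, 74.7 and 75.2 CPM with sgNTS, which were narrowly apart and did not pass the test (0.09 ± 0.04, adjusted p = 0.102). RRP12, which helps to carry the small-subunit precursor out of the nucleus, was at 176, 191, 192 and 167 CPM with sgYES1 in SUM159PT, against 147, 140.1, 157 and 146 CPM with sgNTS, and at 150.2, 146, 150.4 and 149 CPM with sgYES1 in MDA-MB-231, against 134, 132, 127 and 131 CPM with sgNTS. It was apart in both lines, with changes of 0.30 ± 0.05 in SUM159PT (adjusted p = 5.78e-05) and 0.19 ± 0.03 in MDA-MB-231 (adjusted p = 0.000478). NOB1, the nuclease that makes the final cut of the small-subunit rRNA, was at 105, 111, 103 and 94.8 CPM with sgYES1 in SUM159PT, against 103, 103, 99.0 and 96.7 CPM with sgNTS. It was at 49.2, 49.8, 48.2 and 41.0 CPM with sgYES1 in MDA-MB-231, against 42.7, 40.9, 44.8 and 43.9 CPM with sgNTS. NOB1 overlapped in both lines and was called in neither, though in MDA-MB-231 3 of the 4 sgYES1 libraries lay above every sgNTS library. Its log2 fold change there was 0.12 ± 0.06 (adjusted p = 0.118), 0.19 without sgYES1 replicate 4 (adjusted p = 0.00794) and 0.17 with library totals (adjusted p = 0.0398). The early-acting processome proteins NOP14, UTP4, UTP15 and UTP20 rose in SUM159PT by 0.16 to 0.34 (UTP15 at 0.17 lost its call without sgNTS replicate 4, 0.151, or sgYES1 replicate 1 or 3, 0.121 and 0.145), and LTV1, an export and assembly factor that shares 34.8% of its exonic bases with other genes on its strand, by 0.28.

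UTP20 and HEATR1, long scaffold proteins of the small-subunit processome, had uneven libraries in MDA-MB-231. UTP20 was at 113, 98.3, 91.6 and 88.3 CPM with sgYES1, against 91.2, 107, 107 and 128 CPM with sgNTS, and HEATR1 at 53.7, 55.6, 55.9 and 45.2 CPM with sgYES1, against 53.5, 60.2, 60.9 and 70.0 CPM with sgNTS. Both genes had their highest sgNTS value in replicate 4, the library that stood apart. The median log2 deviation of the 20% of genes with the longest models minus that of the 20% with the shortest, each gene centred within its group, was 0.05, 0.03, -0.01 and -0.08 in these sgYES1 libraries and -0.10, 0.01, -0.01 and 0.08 in these sgNTS libraries, and its part in the results was not tested. The libraries lowest and highest by this measure in each guide group were also lowest and highest for UTP20 and for POLR1A. For HEATR1 that held in the sgNTS libraries, while in the sgYES1 libraries the lowest was the same and replicates 1 to 3 did not follow it. UTP20 was not called (-0.15, adjusted p = 0.203) and had -0.06 without sgNTS replicate 4 (adjusted p = 0.565), while it was called lower without sgNTS replicate 1 (-0.23, adjusted p = 0.0293) and without a filter on low counts (-0.18, adjusted p = 0.0021). HEATR1 was called lower (-0.22 ± 0.08, adjusted p = 0.0371) and lost the call in 8 alternatives, among them without sgNTS replicate 4 (-0.15, adjusted p = 0.0942), without sgYES1 replicate 4 (-0.15, adjusted p = 0.122) and on dropping sgYES1 replicate 1 or 1 of sgNTS replicates 2 and 3 (-0.235 to -0.226). These MDA-MB-231 values also enter the differences between lines for UTP20 (0.47 ± 0.12, adjusted p = 0.00378) and HEATR1 (0.34 ± 0.10, adjusted p = 0.0125). Without MDA-MB-231 sgNTS replicate 4 these were 0.42 for UTP20 (adjusted p = 0.00288) and 0.29 for HEATR1 (adjusted p = 0.0145).

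**Figure D3:**
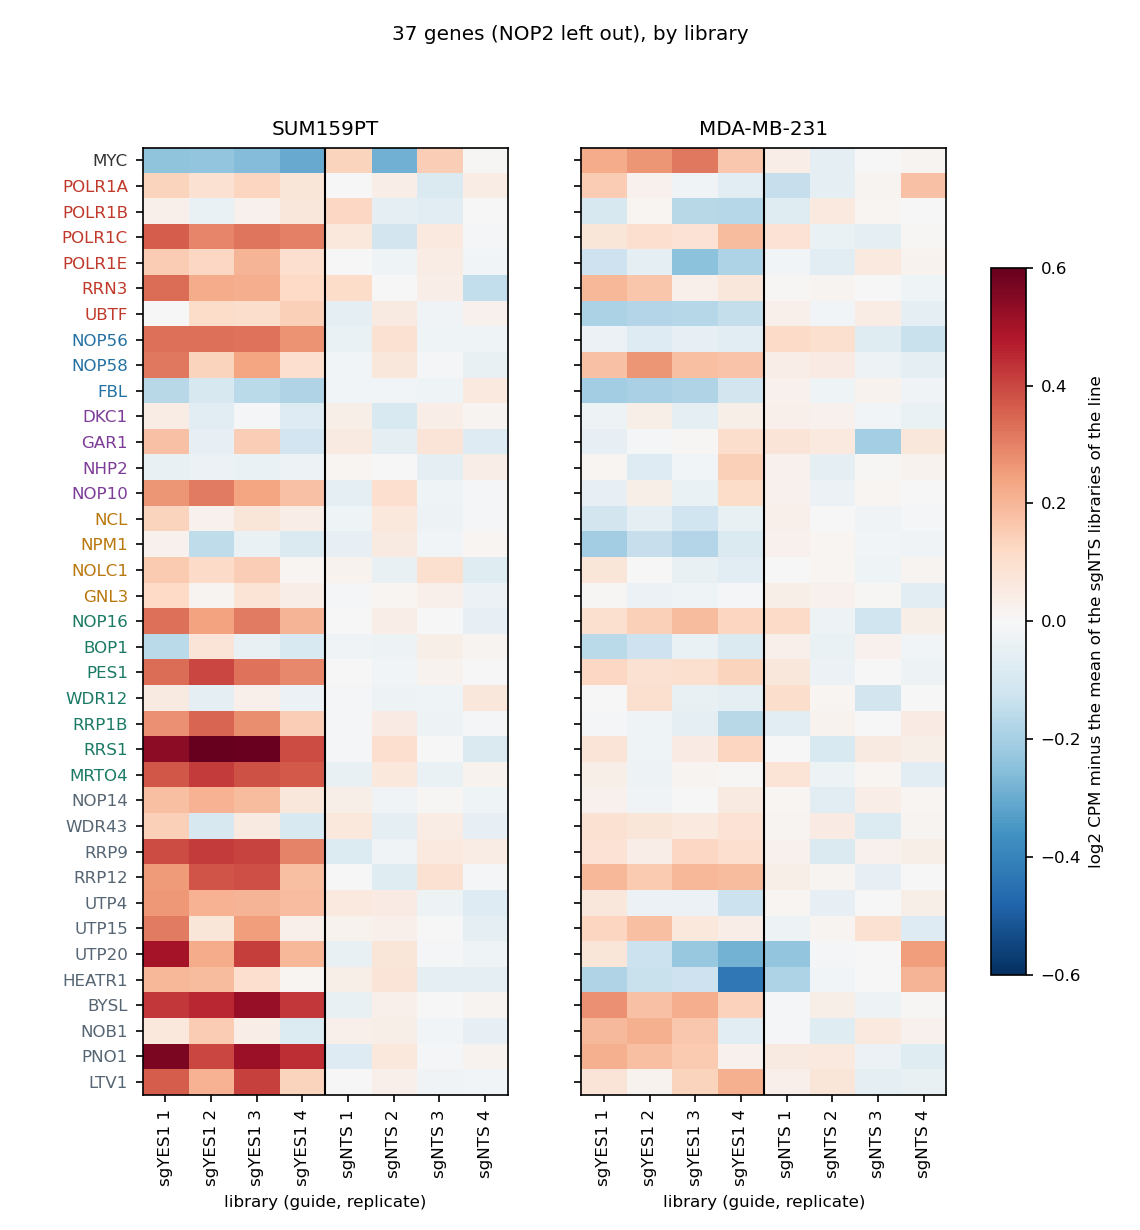
Log2 CPM of 37 genes (NOP2 left out) in each library minus the mean of the sgNTS libraries of its line, SUM159PT in the left panel and MDA-MB-231 in the right, sgYES1 libraries left of sgNTS libraries; the colour scale stops at 0.6 in both directions. Most large and small subunit factors are red across the SUM159PT sgYES1 libraries, but BOP1, WDR12, WDR43 and NOB1 are not. MYC is blue there and red in MDA-MB-231 sgYES1, and UTP20 and HEATR1 vary from library to library in MDA-MB-231.

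Set side by side, 5 genes rose in both lines (NOP58, PES1, RRP12, BYSL and PNO1), FBL fell in both, MYC rose in MDA-MB-231 and fell in SUM159PT, and POLR1E did the opposite. A further 16 were called higher in SUM159PT and not called in MDA-MB-231, 5 were called lower in MDA-MB-231 and not called in SUM159PT, and 9 were called in neither. How many of all genes had the same pairs of calls was not counted, so these counts are a description. The effects in the lines correlated at 0.38 (Pearson) over the 13390 genes tested in both, and at 0.30 over the 37 genes without NOP2. Tested directly, the effect in SUM159PT exceeded that in MDA-MB-231 for 15 genes and was below it for MYC, where 24.5% of the 16640 genes tested were called, 12.7% in the first direction and 11.9% in the second. Of the 15, 10 were processing factors of 20, 2 were polymerase I genes (POLR1E and UBTF), and the others were NOP56, NOP10 and NCL. The NCL difference of 0.14 ± 0.05 (adjusted p = 0.039) was lost in 5 alternatives, among them without MDA-MB-231 sgNTS replicate 1, sgYES1 replicate 1 or sgYES1 replicate 3 (0.127 to 0.138). Without both sgNTS libraries that stood apart the counts were again 15 and 1, and without MDA-MB-231 sgYES1 replicate 1 they were 14 and 1. For 10 of the 22 genes that rose in SUM159PT the difference between lines did not pass: POLR1A, POLR1C, RRN3, NOP58, NOP2, NOP16, NOP14, RRP12, UTP15 and LTV1. It was -0.01 ± 0.06 for NOP58, and for POLR1C it was 0.20 (adjusted p = 0.0504) and was called in 14 of 23 alternatives.

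Other genes of the same machinery, listed by step, were counted in the same way. This list was also chosen with earlier results of these data known, so its shares are a description and not an independent check. Of 124 such genes, all tested, 66 rose and 5 fell with sgYES1 in SUM159PT (median log2 fold change 0.17), while 24 rose and 19 fell in MDA-MB-231 (median 0.02). These are 53.2% higher and 4.03% lower in SUM159PT, against 19.6% and 19.7% of all genes tested, and 19.4% higher and 15.3% lower in MDA-MB-231, against 20.8% and 22.1%, so the MDA-MB-231 shares were not above those of all genes. By step the share called higher ran over 27.3% to 68.9% in SUM159PT and 7.14% to 22.2% in MDA-MB-231. The small subunit list had 31 higher and none lower of 45 in SUM159PT, led by DHX37, a helicase (118.5 CPM with sgYES1, 79.9 CPM with sgNTS, log2 fold change 0.57, adjusted p = 4.19e-09) and NOL6, a processome scaffold (0.45, adjusted p = 1.71e-07). It had 10 higher and 4 lower in MDA-MB-231, with DDX49 (0.36) and PDCD11 (0.27) of smallest p. The large subunit list had 23 higher and 2 lower of 45 in SUM159PT, with the helicase DDX56 (0.42) and the methyltransferase FTSJ3 (0.42) first, and 10 higher and 8 lower in MDA-MB-231, with WDR74 (0.28) and DDX18 (-0.19) first. The other polymerase I genes had 4 higher and none lower of 9 in SUM159PT, with the subunit CD3EAP at 0.35 and the promoter factor TAF1C at 0.18 (not called without sgNTS replicate 4, 0.143, or in 1 fit of all libraries, 0.175), and 2 higher and 1 lower in MDA-MB-231, with TWISTNB at -0.19 and TAF1D at 0.29. The other snoRNP genes had 3 higher and 2 lower of 11 in SUM159PT, with PIH1D1 at -0.30 and SNU13 at 0.20. They had 1 higher and 3 lower in MDA-MB-231, with RUVBL2 at -0.17 and RUVBL1 at -0.20. The RNA exosome, which trims and degrades the by-products, had 5 higher and 1 lower of 14 in SUM159PT and 1 higher and 3 lower in MDA-MB-231. Its subunit EXOSC4 rose in both lines, by 0.54 in SUM159PT and 0.45 in MDA-MB-231, while EXOSC8 fell by 0.45 in SUM159PT and EXOSC10 fell by 0.34 in MDA-MB-231.

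The partners and antagonists of MYC were listed separately. MAX is the obligate partner of MYC, and the MXD proteins, MXI1 and MNT compete for it. MXD1 moved in opposite directions, with 26.1 CPM with sgYES1 and 33.8 CPM with sgNTS in SUM159PT (log2 fold change -0.36 ± 0.09, adjusted p = 0.00276) and 27.2 CPM with sgYES1 and 16.8 CPM with sgNTS in MDA-MB-231 (0.69 ± 0.06, adjusted p = 1.3e-06). The difference was -1.07 ± 0.12 (adjusted p = 5.27e-07). MXI1 fell to 38.6 CPM with sgYES1 in SUM159PT, against 55.5 CPM with sgNTS (-0.53 ± 0.06, adjusted p = 3.21e-07), and was not called in MDA-MB-231 (0.12 ± 0.07). MNT rose in MDA-MB-231 to 36.6 CPM with sgYES1, against 28.5 CPM with sgNTS (0.36 ± 0.06, adjusted p = 0.000263), while its SUM159PT value of 0.12 ± 0.06 did not pass (adjusted p = 0.115). Its difference between lines of -0.25 ± 0.08 (adjusted p = 0.0226) was lost in 13 of 23 alternatives, among them without either or both sgNTS libraries that stood apart (-0.225 to -0.197). MXD4 had 0.12 ± 0.05 in SUM159PT, which did not pass (adjusted p = 0.08), and rose by 0.27 ± 0.05 in MDA-MB-231 (adjusted p = 0.000448). Of these 4 competitors, MXD1 and MXI1 fell in SUM159PT, as MYC did, and MNT and MXD4 were not called there. MXD3, a further competitor given below, was called lower in both lines, unlike MYC. MAX rose in SUM159PT by 0.17 ± 0.06 (adjusted p = 0.0246; not called without sgNTS replicate 4, 0.128, without sgYES1 replicate 1, 0.155, or without a filter, 0.163) and had 0.12 ± 0.05 in MDA-MB-231 (adjusted p = 0.0758). MLX, the partner of a parallel set of factors, rose in SUM159PT (0.31 ± 0.06) and fell in MDA-MB-231 (-0.18 ± 0.04), a difference of 0.48 ± 0.07 (adjusted p = 6.49e-06). MXD3 fell in both lines, by 0.35 in SUM159PT and 0.32 in MDA-MB-231, though 4 alternatives ended the call in SUM159PT (without sgNTS replicate 4, sgYES1 replicate 1 or 3, or in DESeq2, adjusted p = 0.0615 to 0.117) and 6 in MDA-MB-231 (among them without sgNTS replicate 1, 2 or 3 and without sgYES1 replicate 1 or 2, adjusted p = 0.0544 to 0.0763). MYCL, a paralog of MYC, was called higher in MDA-MB-231 at 0.949 CPM with sgYES1, against 0.487 CPM with sgNTS, and lost the call in 6 alternatives, among them without sgYES1 replicate 1, 3 or 4 and without sgNTS replicate 3 or 4. Of 12 genes in the list, 10 were tested in SUM159PT, with 2 higher and 3 lower. In MDA-MB-231 11 were tested, with 4 higher and 2 lower. These are 20% higher and 30% lower in SUM159PT, against 19.6% and 19.7% of all genes tested. In MDA-MB-231 they are 36.4% and 18.2%, against 20.8% and 22.1%. A difference from the shares of all genes was not tested.

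The lines also differed before any YES1 guide was used. Between the sgNTS groups, 29 of the 38 genes were higher in SUM159PT than in MDA-MB-231, 6 were lower (POLR1E, NOLC1, NOP14, UTP20, BYSL and PNO1) and 3 were not called (DKC1, GAR1 and NOP2). Of all 16640 genes tested, 81.8% were called, 40.5% higher and 41.3% lower, so a call alone says little here, but the direction was uneven among these genes. Their median log2 difference (SUM159PT minus MDA-MB-231) was 0.43, against -0.01 over all genes tested. The groups did not overlap for 29 higher and 6 lower genes, against 37.5% and 38.5% of all genes. Each line was grown in its own medium, per the labels' protocols, so line and medium cannot be told apart.

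MYC had the largest difference between the control groups, with 1113 ± 146 CPM in SUM159PT and 195 ± 5.11 CPM in MDA-MB-231 (SD, n = 4 each, scaled over all 16 libraries), a 5.72-fold level in SUM159PT (log2 difference 2.52 ± 0.06, edgeR adjusted p = 3.2e-22, and 2.58 without SUM159PT sgNTS replicate 2). NOB1 followed at 102 ± 2.32 CPM in SUM159PT and 42.5 ± 1.57 CPM in MDA-MB-231 (SD, n = 4 each; 1.26 ± 0.06, edgeR adjusted p = 7.33e-17), and NHP2 at 146 ± 4.44 CPM in SUM159PT and 70.9 ± 1.59 CPM in MDA-MB-231 (SD, n = 4 each; 1.04 ± 0.04, edgeR adjusted p = 2.11e-17). PES1 differed by 0.79 ± 0.04, POLR1A by 0.64 ± 0.05, NPM1 by 0.53 ± 0.04 and NOP58 by 0.50 ± 0.05, all higher in SUM159PT. NOLC1 was the gene most clearly lower there, at 219 ± 10.7 CPM in SUM159PT and 323 ± 4.40 CPM in MDA-MB-231 (SD, n = 4 each; -0.56 ± 0.04, edgeR adjusted p = 3.35e-12). BYSL and PNO1, which rose with sgYES1 in both lines, were lower in SUM159PT controls (log2 differences of -0.42 ± 0.04 and -0.21 ± 0.05). Calls of UTP4 (0.12 ± 0.04) and WDR43 (0.14 ± 0.05), both higher in SUM159PT controls, were lost in 11 and 5 of 23 alternatives. All 3 box C/D proteins were higher in SUM159PT controls, by 0.39 to 0.50.

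Per length, MYC ranked number 2 of 37 genes in SUM159PT controls and number 6 in MDA-MB-231 controls. Levels were set as TPM (counts per base, scaled to the same sum in each library), computed from the counts and the gene lengths in the tables, which cover every annotated exon, so the order is approximate. In SUM159PT sgNTS NPM1 was highest at 1394 ± 33.4 TPM, MYC followed at 1290 ± 177 TPM and NOP10 at 572 TPM, and UTP20 lowest at 26.7 TPM (SD, n = 4). NPM1 and MYC overlapped there. In MDA-MB-231 sgNTS NPM1 was highest at 1018 TPM, followed by NCL at 439, NOP10 at 404, FBL at 364, NOLC1 at 298 and MYC at 237 TPM, with UTP15 lowest at 21.4 TPM. Of the 36 pairs of neighbours in the order, with NOP2 left out, 18 overlapped in SUM159PT sgNTS and 28 in MDA-MB-231 sgNTS. With sgYES1 MYC was again next after NPM1 in SUM159PT at 1083 ± 25.5 TPM, and there it no longer overlapped NPM1 at 1353 ± 79.5 TPM. By class the chaperones had the highest median in SUM159PT sgNTS (394 TPM), and polymerase I genes (69.8 TPM) and small subunit factors (69.4 TPM) the lowest.

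**Figure D4:**
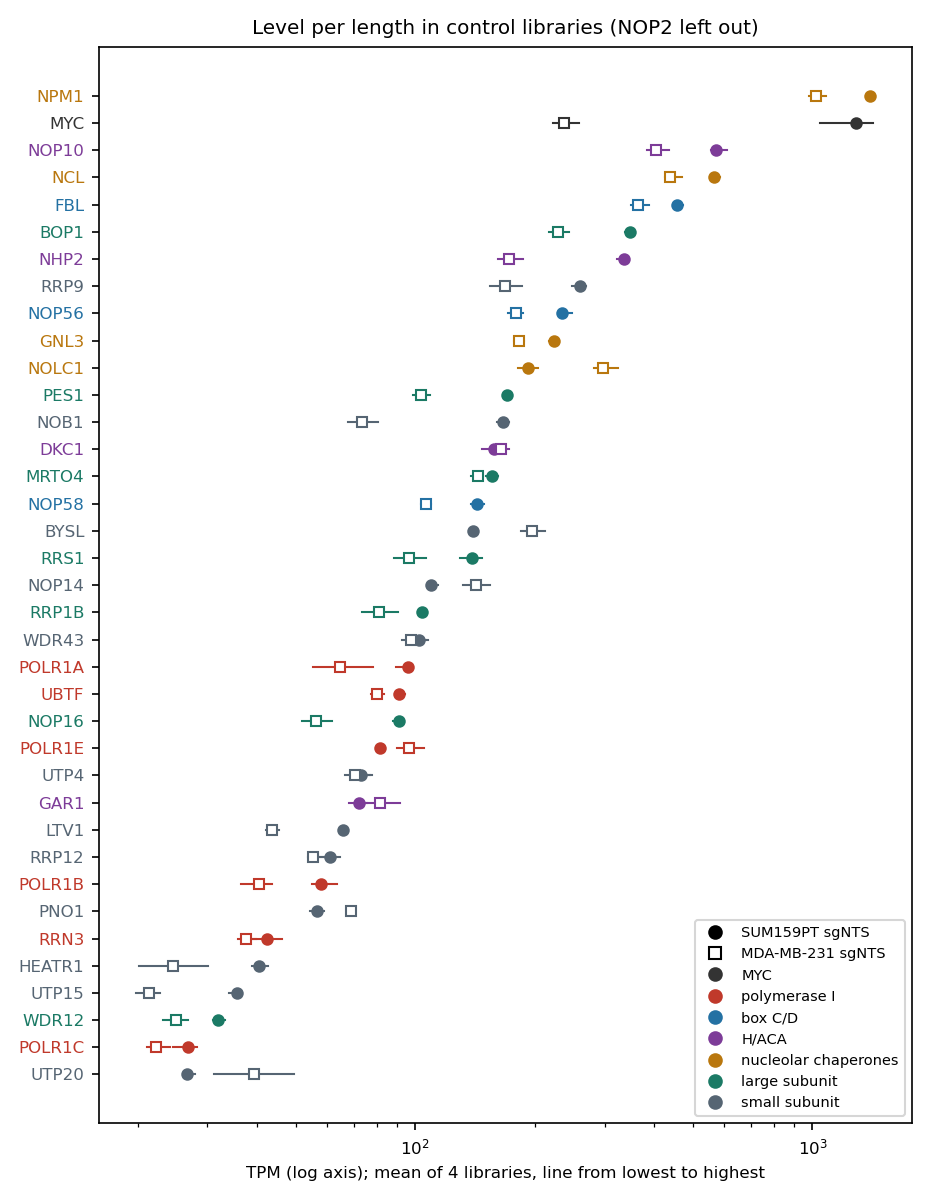
Level per length (TPM, log axis) of 37 genes in sgNTS libraries of SUM159PT (filled circles) and MDA-MB-231 (open squares), ordered by the SUM159PT mean; lines run from the lowest to the highest of 4 libraries and colours mark the classes. MYC lies at 1290 TPM in SUM159PT and 237 TPM in MDA-MB-231, the widest gap of the genes plotted.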

How the data were processed

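RNA was taken 48 h after transfection with a column kit and enriched for poly-A transcripts with bead-bound oligo-dT, per the labels' protocols, which allow for directional and non-directional libraries; the counts of overlapping genes are therefore uncertain. For each line the authors deposited a table of whole-number counts per gene without normalization. The submitters' processing notes name hg38, HISAT2 2.0.5 and featureCounts 1.5.0-p3. All 58735 genes matched GENCODE 29, which gave coordinates and overlaps. Each library counted as 1, since no pair of replicates agreed within sampling noise (chi-square per degree of freedom at least 2.33). That check cannot show that replicates described as technical are independent.

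The main test was edgeR's quasi-likelihood F-test (version 4.0.16, R 4.3.3) after TMM scaling and filterByExpr (smallest count 10, smallest total 15), two-sided, with Benjamini-Hochberg adjustment over all genes tested and a threshold of 0.05. A line's guide effect was fitted in its 8 libraries without other terms. The difference between lines and the control line difference came from a fit of all 16 libraries. SE is the fold change over the square root of F. CPM values are TMM-scaled within the line. The tests were tried on simulated data first. Alternatives were other scalings, other filters, DESeq2 1.42.0, the replicate number as a block, 1 fit of all libraries, and leaving out each library; leaving out both sgNTS libraries that stood apart was added after the data were seen.

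Members and lists were chosen with earlier results of these data known. Values per library are given for MYC and, in each other class, for the gene of smallest p in each comparison; NOP2, UTP20 and HEATR1 were added after their values were seen. Of the other lists (136 of 140 symbols matched), the 2 called genes of smallest p in each line are named, and the other called genes of the MYC list were added after their values were seen. Sequences are shown for some of the genes given per library, with UTP20 and UTP4 added for their motif.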

Additional observations from a re-analysis of the deposited data

Results flagged for a closer look

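The effect of sgYES1 (log2 fold change over sgNTS) differed between the lines for 16 of the 38 genes, by the edgeR test of the interaction of line and guide. By the same test 24.5% of all 16640 genes tested were called, 12.7% higher and 11.9% lower in SUM159PT. The differences, SUM159PT minus MDA-MB-231, were -0.52 for MYC, 0.29 for POLR1E, 0.25 for UBTF, 0.36 for NOP56, 0.22 for NOP10 and 0.14 for NCL. Among the large subunit factors they were 0.22 for PES1, 0.32 for RRP1B, 0.46 for RRS1 and 0.37 for MRTO4. Among the small subunit factors they were 0.28 for RRP9, 0.24 for UTP4, 0.47 for UTP20, 0.34 for HEATR1, 0.24 for BYSL and 0.33 for PNO1. MYC and POLR1E were the 2 genes called in opposite directions in the lines.

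A single library lay far from the other 3 of its group in 7 of 152 groups of 4 checked, where chance gives about 7.6. In SUM159PT sgYES1, NOP56 was low in replicate 4 (434 CPM). In SUM159PT sgNTS, NOP56 was high in replicate 2 (384 CPM), DKC1 was low in replicate 2 (177 CPM) and FBL was high in replicate 4 (292 CPM). In MDA-MB-231 sgYES1, NOP58 was high in replicate 2 (117 CPM). In MDA-MB-231 sgNTS, GAR1 was low in replicate 3 (40.1 CPM) and RRP9 was low in replicate 2 (69.2 CPM).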

How the results depend on the processing

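In SUM159PT the number of genes called higher was 19 to 24 when a library was left out and 20 to 26 under the other alternatives, and 2 were lower in each. In MDA-MB-231 the counts moved with the scaling and filter: 14 higher and 3 lower with library totals only, 12 higher and 4 lower with only genes averaging 5 CPM or more, and 3 lower with the replicate block. Leaving out 1 library gave 4 to 8 higher and 3 to 7 lower. The counts over all genes tested in MDA-MB-231 moved as well, from 3205 higher and 3402 lower in the main test. They were 2661 to 3956 higher and 2661 to 3812 lower under the alternatives that left out no library. Processing factors called higher there numbered 10 with library totals, 8 with the 5 CPM filter, 2 without a filter and 2 to 5 with a library left out. Other biogenesis genes called higher there numbered 37 with library totals and 15 without a filter. Those called lower in SUM159PT numbered 2 with library totals, 3 with the 5 CPM filter, 8 in 1 fit of all libraries and 3 to 5 with a library left out, and those lower in the difference between lines 4 to 7. Replicate numbers did not pair the samples (correlations of same-numbered libraries -0.11 to 0.05), so the block is given here alone; it also ended the MDA-MB-231 calls of POLR1E, NCL, HEATR1, BOP1, MXD3 and MYCL and the NCL difference between lines (adjusted p = 0.0573 to 0.0956). Signs that turned belonged to log2 values near 0. In MDA-MB-231, library totals gave 0.0363 for NOLC1, 0.0427 for DKC1, 0.0302 for GNL3, 0.0401 for WDR12 and 0.0128 for UTP4, and the 5 CPM filter gave 0.0192 for NOLC1, 0.0258 for DKC1, 0.0132 for GNL3 and 0.0232 for WDR12. DKC1 was 0.000399 in 1 fit of all libraries. Without a filter POLR1A was -0.00855, NHP2 -0.008995, NOP10 -0.0124, MRTO4 -0.0213, GAR1 -0.0196 and NOP14 -0.0137. With a library left out NOLC1 ran from -0.0412 to 0.00791, DKC1 from -0.0174 to 0.0159, WDR12 from -0.0429 to 0.0296, POLR1A from -0.0273 to 0.0822, NHP2 from -0.028 to 0.0475, NOP10 from -0.0196 to 0.0358, MRTO4 from -0.0166 to 0.0332, GAR1 from -0.0549 to 0.0318 and NOP14 from -0.00924 to 0.0254. In SUM159PT, WDR12 was 0.0242 with library totals, 0.00413 with DESeq2's size factors, 0.00398 in DESeq2 and 0.0173 with the 5 CPM filter, and WDR43 was -0.000976 without a filter and -0.00158 in 1 fit of all libraries. With a library left out there, WDR12 ran from -0.0216 to 0.0221, WDR43 from -0.0445 to 0.0451, POLR1B from -0.000438 to 0.0607 and GAR1 from -0.00264 to 0.105. In the difference between lines NOP58 was 0.0152 with DESeq2's size factors, 0.0155 in DESeq2, 0.00585 without a filter, 0.0393 without both sgNTS libraries that stood apart and -0.0196 to 0.0593 with a library left out, while FBL ran from -7.47e-05 to 0.0688 and NHP2 from -0.082 to 0.0152. The causes were not tested. MYC kept its call and direction in both lines in every alternative run (SUM159PT adjusted p at most 0.0204). NOP2, at 0.436 to 1.77 CPM, rests on few counts, and why its level is low was not tested.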
